A study of Mus musculus with 6 samples.

Results

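The genes described here are the chemokines and the chemokine receptors of mouse, taken as every gene of the deposited count table whose symbol begins with Ccl, Ccr, Cxcl, Cxcr, Cx3c, Xcr or Ackr, followed by a number with or without lower-case letters before it. That choice by name gave 53 of the 17491 genes in the table, 30 ligands and 23 receptors. The name rule itself used no measured value, but the members were chosen with earlier results of these data known. The RNA came from osteoblasts grown out of wildtype mouse bone marrow stromal cells of tibia and femur and differentiated until day 7 in a medium holding ascorbic acid, β-glycerophosphate and dexamethasone. There were 3 libraries of control cultures and 3 of cultures treated with verapamil, a drug that blocks calcium channels of the L type, and both groups had that osteogenic medium. The labels name no strain, sex or age of the animals, and no dose or exposure time of the drug. Nothing in them tells whether the replicates were grown from different animals or in different dishes. The p-values therefore weigh the spread among these 6 libraries alone, and that spread may be technical.

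Chemokines are small secreted proteins that draw cells along a gradient. They are named for the spacing of their first cysteines (CC, CXC, CX3C and XC) and act on receptors of the G protein-coupled family, while atypical receptors bind chemokines without signalling through G proteins and remove or hold them. In bone marrow the best known pair is Cxcl12, made by stromal cells, with its receptor Cxcr4, which keeps haematopoietic cells in the marrow. Monocytes and macrophages make many CC ligands and carry CC and CX3C receptors.

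Levels are given as CPM, read counts scaled to a common library size with TMM, a correction for library composition. Changes are log2 fold changes, positive where verapamil was higher, each with a standard error (SE). A gene rose or fell where edgeR's quasi-likelihood test gave a Benjamini-Hochberg adjusted p under 0.05 over all tested genes, and all adjusted p values below are from that test unless another is named. Library totals ran from 18.2 M to 21.7 M reads. The control libraries were farther apart than the verapamil libraries (biological coefficient of variation 12.4% against 4.46%), and control replicate 2 lay farthest out on the first principal component. Of 24 macrophage and monocyte markers 23 could be tested, of which 18 rose and none fell, and their summed level was 11415 to 13956 CPM in controls and 19841 to 22236 CPM with verapamil. Most of that difference was Lyz2, at 5536 CPM in controls and 11197 CPM with verapamil on average. The labelled cell type was checked against 15 osteoblast genes, which were all present and of which 12 fell, with sums of 50304 to 62288 CPM in controls and 30307 to 30532 CPM with verapamil. Most of that difference was Col1a1 (17067 and 5387 CPM on average) and Col1a2 (14680 and 6034 CPM). In such bulk RNA, fewer cells of a type and less RNA per cell cannot be told apart. Over all 13366 tested genes, 15.4% rose and 16.3% fell, the shares to set beside the counts of each list.

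Of the 53 genes, 31 had enough reads to be tested, 19 ligands and 12 receptors. Higher with verapamil were the stromal ligand Cxcl12, the CC ligands Ccl2, Ccl3, Ccl4, Ccl7, Ccl9 and Ccl24, the ligand Cxcl9 and the receptors Cxcr4 and Ccrl2. Among those lower were the ligands Cx3cl1 and Ccl12 and the receptors Cxcr6, Cx3cr1, Ackr3, Xcr1 and Ccr2. In all, 10 of the 31 rose and 8 fell, 58.1% of those tested, where 31.7% of all 13366 tested genes passed (15.4% higher and 16.3% lower). Of the tested ligands 8 rose and 2 fell, and of the tested receptors 2 rose and 6 fell, a contrast between the classes that was not itself tested. The median log2 fold change was 0.47 over the tested ligands, -1.09 over the tested receptors and 0.01 over all tested genes. Ccr2, Xcr1 and Cxcr6 had under 10 reads in every verapamil library and met the low-count filter through the controls alone. Ccl24 and Ccl28 met it only through the verapamil libraries. A gene as low in both groups would not have been tested, so the counts and medians lean toward differences in these genes. Counts under a stricter filter are given at the end. Without control replicate 2, 12 of the genes rose and 8 fell, where 17.0% and 18.8% of all genes tested then passed in those directions. The number that rose was 6 without verapamil replicate 1 and 5 without verapamil replicate 2. Over all genes the number that rose also changed between the fits that left out 1 library, and its range is given at the end. In each of these 6 fits, 10 of the 18 calls held. They included Ccl3, Ccl4, Cxcl9, Cx3cl1, Cxcr4, Cxcr6, Ccr2, Cx3cr1 and Ackr3.

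**Figure D1:**
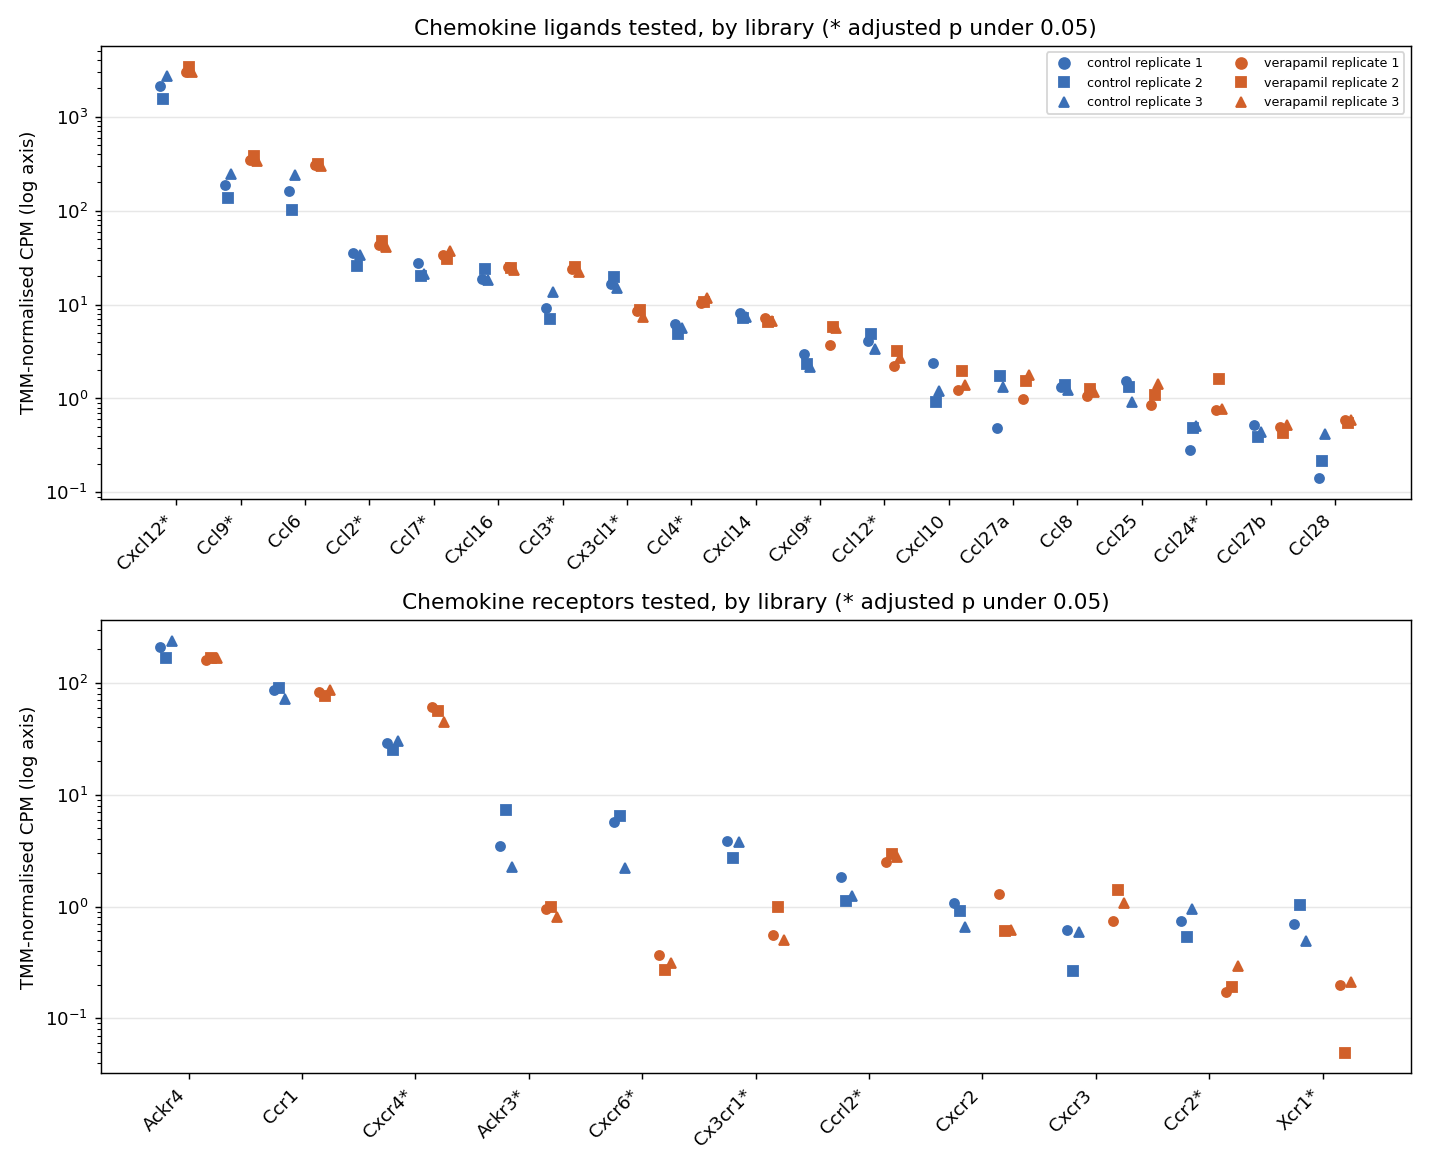
TMM-normalised CPM on a log axis for the 19 tested ligands (top) and 11 of the 12 tested receptors (bottom), 1 point per library, ordered by mean level, with an asterisk where the adjusted p was under 0.05. Cxcl12 stands above every other ligand in all libraries, and the verapamil points of Cxcr6, Cx3cr1 and Ackr3 lie below all control points.

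Promoter sequences are shown for the 3 tested genes with a matched start site that hold the NF-κB consensus, a motif known from inducible chemokine genes. That of Ccl6, the neighbour of Ccl9 without it, is also shown. RefSeq start sites were matched for 41 of the 53 genes, and the 250 bases before each start were searched on both strands for the NF-κB consensus, for the consensus of the interferon-stimulated response element (the interferon element below), and for the hypoxia core ACGTG, the ETS motif GAGGAAGT and the C/EBP motif TTGCNNCAA. The 4 windows below are on the minus strand of GRCm38.p6, written 5′ to 3′ and ending at the base before the start site, with matches to the NF-κB consensus or the interferon element in capitals. They lie at chr11:83578637-83578886 (Ccl9), chr9:111057519-111057768 (Ccrl2), chr5:92348890-92349139 (Cxcl10) and chr11:83593088-83593337 (Ccl6).
Ccl9: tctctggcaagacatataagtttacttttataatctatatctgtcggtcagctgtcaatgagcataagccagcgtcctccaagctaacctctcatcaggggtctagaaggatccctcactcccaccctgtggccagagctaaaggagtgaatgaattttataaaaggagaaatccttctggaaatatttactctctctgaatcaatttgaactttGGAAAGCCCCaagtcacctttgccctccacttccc
Ccrl2: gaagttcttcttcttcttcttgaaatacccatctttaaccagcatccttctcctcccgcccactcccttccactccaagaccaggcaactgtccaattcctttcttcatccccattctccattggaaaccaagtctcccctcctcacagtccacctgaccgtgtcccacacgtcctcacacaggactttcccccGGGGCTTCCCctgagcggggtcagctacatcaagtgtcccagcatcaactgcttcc
Cxcl10: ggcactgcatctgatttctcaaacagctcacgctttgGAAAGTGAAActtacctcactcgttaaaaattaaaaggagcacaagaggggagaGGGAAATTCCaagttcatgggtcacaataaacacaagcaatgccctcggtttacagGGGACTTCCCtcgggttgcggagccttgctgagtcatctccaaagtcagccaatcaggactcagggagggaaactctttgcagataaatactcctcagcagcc
Ccl6: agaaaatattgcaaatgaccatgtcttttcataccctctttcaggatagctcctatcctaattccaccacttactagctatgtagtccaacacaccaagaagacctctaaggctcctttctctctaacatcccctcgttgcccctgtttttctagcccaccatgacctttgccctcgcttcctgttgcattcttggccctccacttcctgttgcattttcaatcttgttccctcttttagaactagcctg

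The NF-κB consensus was found in 8 of the 41 genes (19.5%), where 4.46% of all 27025 genes with a start site held it. Members without a matched start site were not searched. Among them were Ccl2, Ccl4, Ccl7 and Ccl24, which rose, and Ccl5, Cxcl5 and Cxcl16. Most of the 8 holders had too few reads to be tested, namely Ackr2, Ccr3, Ccr6, Cxcl1 and Cxcl2. The other 3 did not move together, since Ccl9 and Ccrl2 rose and Cxcl10, with 2 such matches and an interferon element, was at 0.908 to 2.40 CPM in controls and 1.22 to 1.98 CPM with verapamil. The match lies 35 bases before the start in Ccl9 and 56 bases before it in Ccrl2, where this was 1 of 3 listed start sites and the others held none. The interferon element was held by 3 of the 41 genes (7.32%, against 3.46% of all genes), the hypoxia core by 6 (14.6% against 18.5%), the ETS motif by 1 (2.44% against 2.79%) and the C/EBP motif by 2 (4.88% against 1.98%). A match is a description of letters in this window and not of a bound site.

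Cxcl12, the stromal ligand of Cxcr4, was by far the most abundant member. It took 69.8% to 74.5% of all reads of the 53 genes in every library. Its level was 2109.9, 1564 and 2684 CPM in control replicates 1, 2 and 3 and 3009.6, 3427 and 2970.2 CPM in verapamil replicates 1, 2 and 3. All 3 verapamil libraries lay above all controls, but the gap between control replicate 3 and the lowest verapamil library was smaller than the SD of the controls (560.1 CPM). The rise was 1.48-fold (0.57 ± 0.18 SE on the log2 scale, adjusted p = 0.0470). That call was lost without control replicate 1 (adjusted p = 0.132), without any 1 of the verapamil libraries (adjusted p = 0.0982 to 0.154) and when genes of low count were kept (adjusted p = 0.0619), while without control replicate 2 the log2 fold change was 0.38 (adjusted p = 0.0222). The 13 listed genes of stromal progenitors, cells known for Cxcl12, had none higher and 5 lower, with sums of 1724 to 1734 CPM in controls and 1429 to 1481 CPM with verapamil, and their part in the rise was not tested. Per kilobase of its longest GENCODE transcript, Cxcl12 stood at 377 CPM in controls, ahead of Ccl6 at 117, Ackr4 at 86.0, Ccl9 at 63.1 and Ccl2 at 38.9 CPM per kilobase.

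Both receptors of Cxcl12 changed, and in opposite directions. Cxcr4, the signalling receptor (chromosome 1, 128588199 to 128592299 in GRCm38), was at 29.3, 25.3 and 30.5 CPM in the controls and at 60.4, 56.3 and 44.7 CPM with verapamil. The groups did not overlap, and the rise was 1.89-fold (0.92 ± 0.12 SE, adjusted p = 0.00145). Ackr3, the atypical receptor that takes up Cxcl12 (chromosome 1, 90203980 to 90215724), went from 3.48, 7.26 and 2.25 CPM to 0.957, 0.992 and 0.809 CPM. Every verapamil value lay below every control, and the fall was 4.64-fold (log2 fold change -2.22 ± 0.47 SE, adjusted p = 0.0119). The ratio of Cxcr4 to Ackr3 CPM was 8.42, 3.48 and 13.6 in the controls and 63.2, 56.8 and 55.2 with verapamil.

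Control replicate 2 had the highest Ackr3 and the lowest Cxcl12 of all libraries. The same library had the highest summed level of 15 listed genes of the hypoxia response, at 2469.9 CPM, against 1478 CPM in control replicate 1, 940.2 CPM in control replicate 3 and 606 to 673 CPM with verapamil. Ackr3 followed that order among the controls and Cxcl12 the reverse order. The part of this list's level in either result was not tested. Without control replicate 2, the log2 fold change of Ackr3 was -1.64 (adjusted p = 9.61e-04). Of the 15 hypoxia genes tested, 10 fell and 1 rose. The falls included Egln3, a prolyl hydroxylase that marks HIF for degradation (-3.54), Slc16a3, a lactate exporter (-2.44), Bnip3, a mitophagy receptor (-2.05), and Ero1a, an oxidase of the endoplasmic reticulum (-1.88), whose call was lost without control replicate 2 and without any 1 verapamil library (adjusted p = 0.0618 to 0.0730).

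**Figure D2:**
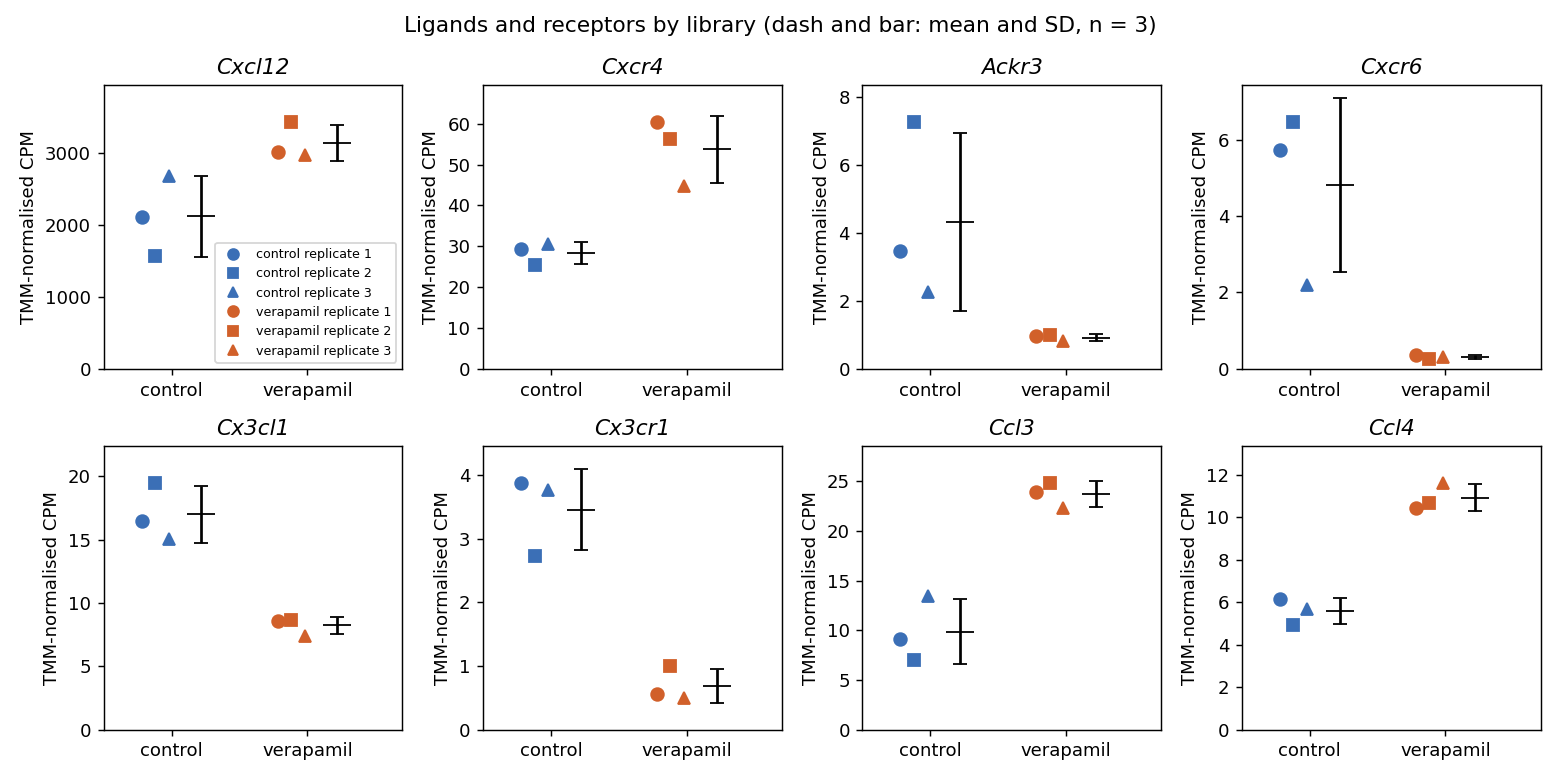
TMM-normalised CPM by library on linear axes from 0 for Cxcl12, its receptors Cxcr4 and Ackr3, Cxcr6, the pair Cx3cl1 and Cx3cr1, and the ligands Ccl3 and Ccl4, with the mean and SD of 3 libraries per group beside the points. Cxcr4, Ccl3 and Ccl4 are higher and Ackr3, Cxcr6, Cx3cl1 and Cx3cr1 lower in every verapamil library than in any control.

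Of the 13 CC ligands tested, 6 rose, 1 fell and 6 did not pass. Ccl3 and Ccl4, the macrophage inflammatory proteins 1α and 1β, are made by activated myeloid cells, and Ccl3 binds Ccr1. Ccl3 (chromosome 11, 83647843 to 83649378) was at 9.16, 7.00 and 13.5 CPM in the controls and at 23.9, 24.9 and 22.3 CPM with verapamil, a 2.39-fold rise (1.26 ± 0.21 SE, adjusted p = 0.00454). Ccl4, next to it, was at 6.15, 4.91 and 5.70 CPM and then at 10.4, 10.7 and 11.6 CPM, a 1.95-fold rise (0.96 ± 0.11 SE, adjusted p = 8.31e-04). Neither gene's groups overlapped, and in both the 3 verapamil libraries were close to each other. The macrophage and monocyte markers given above moved in the same direction as these ligands, and so did the 3 of 12 neutrophil genes with enough reads. The 7 neutrophil genes in the table summed to 9.02 to 9.82 CPM in controls and 19.7 to 22.1 CPM with verapamil. Most of that was Csf3r and Mmp8, on average 5.23 and 3.29 CPM in controls and 7.85 and 11.5 CPM with verapamil. The granule genes Elane, Ltf and Camp reached at most 0.534 CPM in any library. The part of either cell type in the rises of Ccl3 and Ccl4 was not tested.

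Ccl9 and Ccl6, rodent CC ligands that bind Ccr1 and that macrophages and other myeloid cells make, were the most abundant CC ligands per kilobase. Ccl9 (chromosome 11, 83572917 to 83578636) rose from 187, 138 and 244 CPM to 347, 382 and 341 CPM (0.91 ± 0.19 SE, adjusted p = 0.0136), and without verapamil replicate 2 it was just outside the test (adjusted p = 0.0508). Ccl6 was at 164, 101 and 239.8 CPM in the controls and at 309.6, 313 and 301 CPM with verapamil (0.87 ± 0.28 SE, adjusted p = 0.0579). Its groups did not overlap, yet it did not pass, and the controls differed among themselves more than those of Ccl9 relative to their mean. It did pass without control replicate 2 (adjusted p = 0.0458) or without control replicate 3 (adjusted p = 0.00604), and by DESeq2 (adjusted p = 0.0403) and limma-voom (adjusted p = 0.0276). Summed, the pair was at 358 ± 123 CPM in controls and 664 ± 27.1 CPM with verapamil (SD, n = 3).

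Ligands of the monocyte receptor Ccr2 were split. Ccl2, the main monocyte attractant, was at 35.2, 25.6 and 33.9 CPM in the controls and at 43.2, 47.2 and 41.3 CPM with verapamil (0.47 ± 0.12 SE, adjusted p = 0.0184). Ccl7, which shares that receptor, was at 27.7, 19.9 and 21.3 CPM and then at 34.0, 30.5 and 37.3 CPM (0.56 ± 0.13 SE, adjusted p = 0.0148). Both were higher in every verapamil library than in any control, by 1.39-fold and 1.47-fold. The call of Ccl2 was lost without verapamil replicate 1 or 2 (adjusted p = 0.0647 and 0.0794), and that of Ccl7 without verapamil replicate 1 or 3 (adjusted p = 0.0586 and 0.0600). Ccl12, another Ccr2 ligand of mouse, moved the other way, from 4.09, 4.91 and 3.40 CPM to 2.23, 3.20 and 2.70 CPM (-0.60 ± 0.20 SE, adjusted p = 0.0476). The groups of Ccl12 did not overlap either, but its call was lost by DESeq2 and limma-voom (adjusted p = 0.0588 and 0.0564), with library totals as the scale (adjusted p = 0.0626), and without any 1 of the libraries other than control replicate 3 (adjusted p = 0.0590 to 0.150). Ccl8, of the same cluster, stayed between 1.06 and 1.39 CPM (-0.17 ± 0.21 SE, adjusted p = 0.609).

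These CC ligands sit in 2 stretches of chromosome 11. In the stretch of 81.2 kb from Ccl2 to Ccl8, 2 of 4 tested genes rose and 1 fell. In the stretch of 138.9 kb from Ccl5 to Ccl4, 3 of 4 tested genes rose and none fell, and the gene not past the test was Ccl6. Summed over its 5 genes, the first stretch was at 60.0 ± 8.24 CPM in controls and 81.7 ± 1.10 CPM with verapamil, and the second at 374 ± 127 and 699 ± 28.0 CPM (SD, n = 3). The annotated span of Ccl4 overlaps that of Ccl3 in RefSeq, and the strand setting of the counts is not given in the sources used here.

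Ligands of Cxcr3, which is carried by activated T cells, were Cxcl9, which rose, and Cxcl10, which did not pass the test. Cxcl9 was at 2.99, 2.30 and 2.15 CPM in the controls and 3.69, 5.76 and 5.57 CPM with verapamil (1.01 ± 0.22 SE, adjusted p = 0.00947). Verapamil replicate 1 was the lowest of its group but still above every control. Cxcl10, whose ranges are given above, overlapped between groups (0.03 ± 0.37 SE, adjusted p = 0.963). Their receptor Cxcr3 was at 0.267 to 0.611 CPM and 0.744 to 1.40 CPM, not overlapping, and did not pass (1.11 ± 0.37 SE, adjusted p = 0.0524), but did with upper quartile factors (adjusted p = 0.0482) or library totals (adjusted p = 0.0445). Of 21 interferon genes tested beside them, 3 rose (14.3%, against 15.4% of all tested genes) and none fell, with a median of 0.24. Those were Irf8, a myeloid transcription factor (0.65), Irf1, an early interferon-induced factor (0.53), and Ifi47, a GTPase (0.47). Irf1 was not past the test without control replicate 1 (adjusted p = 0.0513), nor Ifi47 without each of the 6 libraries in turn (adjusted p = 0.0517 to 0.120).

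Cx3cl1, known as fractalkine, is made as a membrane-bound protein and shed, and Cx3cr1 on monocytes and macrophages is its receptor. Cx3cl1 (chromosome 8, 94772180 to 94782427) fell from 16.4, 19.5 and 15.1 CPM to 8.61, 8.66 and 7.43 CPM (-1.05 ± 0.12 SE, adjusted p = 7.47e-04). Cx3cr1 (chromosome 9, 120048683 to 120068296) fell from 3.88, 2.73 and 3.77 CPM to 0.561, 0.995 and 0.504 CPM (-2.31 ± 0.28 SE, adjusted p = 9.04e-04). Ligand and receptor were thus both lower, by 2.06-fold and 4.97-fold, with no overlap between groups in either. By log2 fold change, Cx3cr1 ranked 40 among the falls of all tested genes. Of 9 endothelial genes, cells known for Cx3cl1, 3 fell and 1 rose, with sums of 62.0 to 66.6 CPM in controls and 54.2 to 55.5 CPM with verapamil. Of the 15 genes of osteoblasts, the labelled cells, 12 fell, as given above. The part of either cell type in the fall of Cx3cl1 was not tested.

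Cxcr6 had the greatest fall among the 31 tested members. This receptor of Cxcl16, known from T cells and some innate lymphocytes (chromosome 9, 123806477 to 123811754), had 122, 121 and 48 reads in the controls and 7, 6 and 7 reads with verapamil. That is 5.73, 6.46 and 2.20 CPM against 0.372, 0.271 and 0.314 CPM, a 14.8-fold fall (-3.89 ± 0.51 SE, adjusted p = 0.00178). Control replicate 3 was the lowest control but still well above every verapamil library, and Cxcr6 ranked 5 among the falls of all 13366 tested genes. Cxcr6 lies within the span of Fyco1, whose level was 59.9 to 68.8 CPM in controls and 58.0 to 59.5 CPM with verapamil (-0.15 ± 0.07 SE, adjusted p = 0.113). The ligand Cxcl16, a transmembrane chemokine and scavenger receptor, did not pass the test. It was at 18.9, 23.8 and 18.2 CPM in the controls and at 24.8, 24.8 and 23.6 CPM with verapamil (0.27 ± 0.10 SE, adjusted p = 0.0831), and rose without control replicate 2 (0.39, adjusted p = 0.00220) or with library totals as the scale (adjusted p = 0.0197).

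Of the CC receptors, Ccr2 fell and Ccr1 did not pass the test. Ccr2, the monocyte receptor of Ccl2, Ccl7 and Ccl12, had 15.8, 10.0 and 20.8 reads in the controls and 3.26, 4.19 and 6.48 reads with verapamil (-1.85 ± 0.40 SE, adjusted p = 0.00988). Every verapamil library was below every control, but its deposited counts were low and not whole numbers in any library, so how reads were shared with similar genes is uncertain. The counts of Xcr1, Cx3cr1, Cxcr4, Cxcl12, Ccl9, Ccr1 and Ackr4 were also not whole in any library, so this limit is not particular to Ccr2. Ccr1, which binds Ccl3, Ccl6, Ccl7 and Ccl9, was at 86.6, 89.4 and 71.7 CPM in the controls and 82.2, 76.9 and 86.2 CPM with verapamil, with the groups overlapping (-0.01 ± 0.09 SE, adjusted p = 0.927).

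Xcr1, the receptor by which cross-presenting dendritic cells are known, was low and fell from 14.9, 19.3 and 10.7 reads to 3.71, 1.09 and 4.73 reads (-2.17 ± 0.52 SE, adjusted p = 0.0155). The call was lost without control replicate 1 (adjusted p = 0.0526) or verapamil replicate 2 (adjusted p = 0.0549). Cxcr6, Xcr1, Ccr1 and Ccr2 lie in 1 group of receptor genes on chromosome 9. Of these 4, all but Ccr1 fell, and Ccr9, Ccr3 and Ccr1l1 of the same group had too few reads to be tested. Cxcr6, Xcr1 and Ccr2 entered the test through the controls alone, as given above.

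**Figure D3:**
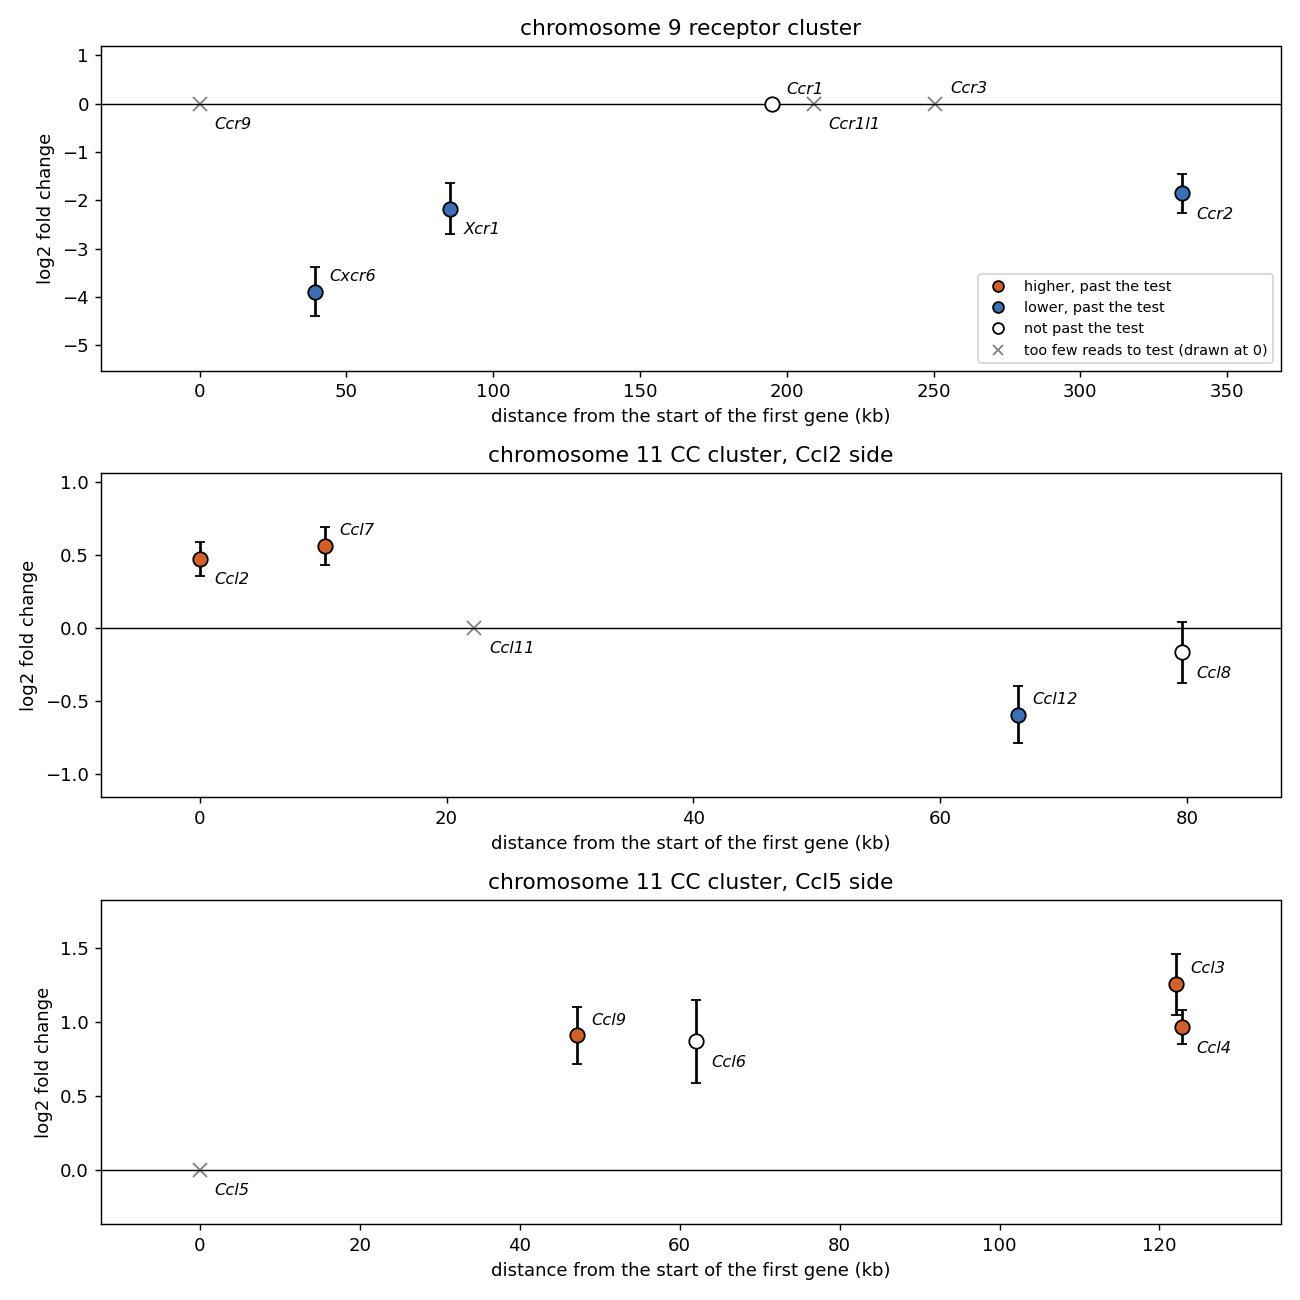
Log2 fold change of verapamil over control with its SE against the distance in kilobases from the first gene, for the receptor stretch of chromosome 9 (top) and both CC ligand stretches of chromosome 11 (middle and bottom), each with its own axis range. Filled points passed the test, open points did not, and crosses at 0 mark genes with too few reads. On chromosome 9, Cxcr6, Xcr1 and Ccr2 lie below 0 on either side of Ccr1, and in the stretch from Ccl5 to Ccl4 the 4 tested ligands lie above 0.

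Markers of lymphocytes and dendritic cells, known for Cxcr6 and Xcr1, were under 1 CPM in every library except Il7r, H2-Ab1, Zbtb46 and Itgax. Most of those of monocytes and macrophages, known for Ccr2 and Cx3cr1, were abundant. The monocyte marker Ly6c2 was not, being at 0 in 4 of the 6 libraries, all verapamil libraries among them, and at most at 0.132 CPM. The part of these cell types in the falls of these receptors was not tested. Among lymphocyte genes, Cd3d was at 0 in 4 of the 6 libraries and Nkg7 and Ms4a1 in 5, and Il7r was the only one of 2 tested that rose (1.22). Summed over the 8 lymphocyte genes in the table the level was 5.68 to 7.75 CPM in controls and 14.7 to 16.3 CPM with verapamil, most of it Il7r, without which it was 0.674 to 0.721 CPM in controls and 1.10 to 1.60 CPM with verapamil. Of the dendritic cell genes, Clec9a was at 0 in 3 libraries and Flt3 reached at most 0.282 CPM, and H2-Ab1, an MHC class II chain, was the 1 of 4 tested that fell, from 17.8 to 4.43 CPM on average, with none higher. The dendritic list summed to 13.1 to 34.0 CPM in controls and 7.86 to 9.55 CPM with verapamil. H2-Ab1 alone carried that difference, since without it the sum was 3.11 to 5.32 CPM in controls and 3.91 to 5.35 CPM with verapamil. Itgax of this list was at 0.694 CPM in controls and 1.66 CPM with verapamil on average and did not pass (1.29, adjusted p = 0.0692). The tested macrophage genes had a median log2 fold change of 0.56, the opposite direction to Ccr2 and Cx3cr1, and no tested macrophage marker fell. Of 5 tested osteoclast genes 1 rose and 2 fell, with sums of 337 to 364 CPM in controls and 316 to 342 CPM with verapamil, and of 2 tested mast cell genes none passed.

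Ackr4, an atypical receptor, was the most abundant receptor gene per kilobase in controls, at 86.0 CPM per kilobase against 29.1 for Ccr1. It takes up Ccl19, Ccl21 and Ccl25, and was at 211, 167 and 238 CPM in the controls and 159.8, 166 and 167 CPM with verapamil. The highest verapamil library lay just below control replicate 2, and the difference did not pass (-0.32 ± 0.12 SE, adjusted p = 0.0657), though it did by DESeq2 (adjusted p = 0.0276) and without control replicate 2 (-0.46, adjusted p = 2.17e-04). Ackr4 shares up to 352 bases of exon with Acad11 on the other strand. Ccrl2, which binds the attractant chemerin, rose from 1.83, 1.12 and 1.23 CPM to 2.50, 2.93 and 2.79 CPM (0.96 ± 0.22 SE, adjusted p = 0.0124), but not without verapamil replicate 2 (adjusted p = 0.0574). Ackr1 and Ackr2 had at most 4 reads in any library.

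**Figure D4:**
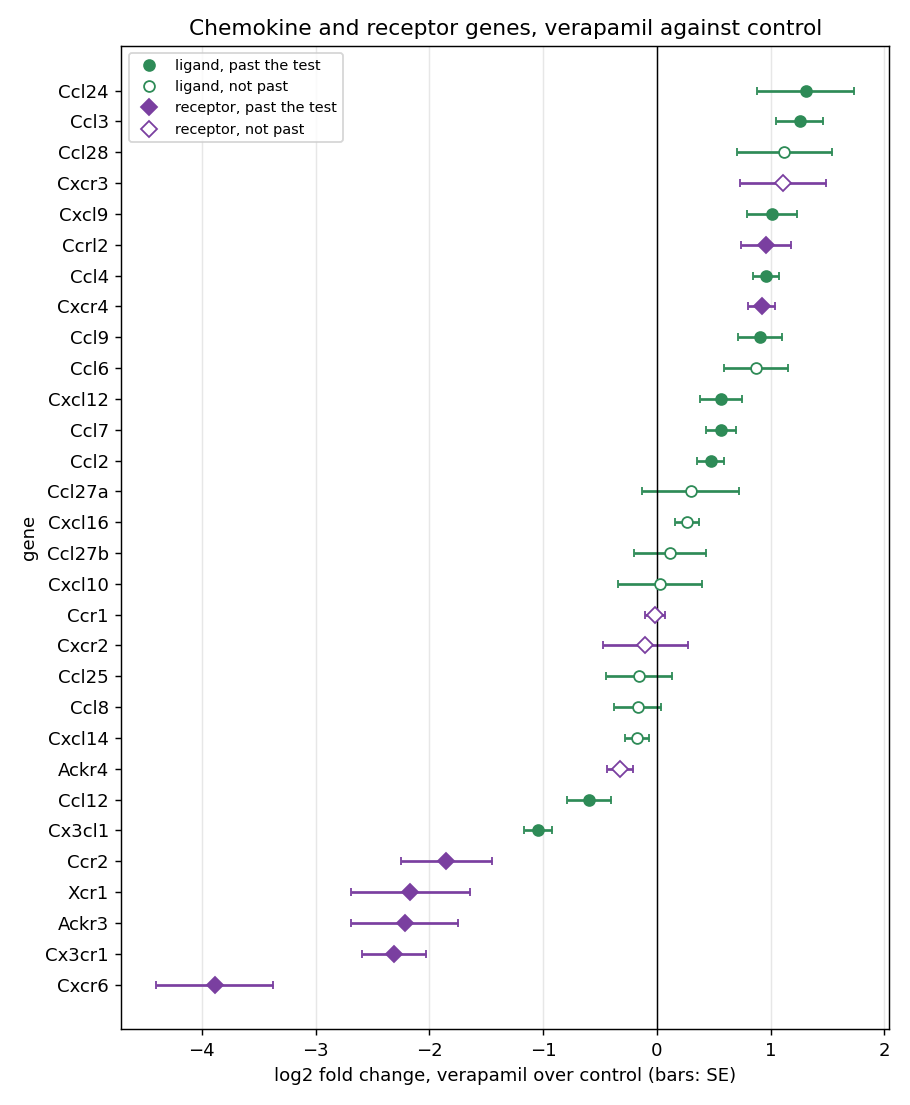
Log2 fold change of verapamil over control with its SE for 30 of the 31 tested genes in order, ligands as circles and receptors as diamonds, filled where the adjusted p was under 0.05. The 5 lowest genes shown are receptors, from Ccr2 at -1.85 to Cxcr6 at -3.89, and the highest are the ligands Ccl24 at 1.31 and Ccl3 at 1.26.

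Other tested ligands were low. Ccl24, an eosinophil attractant also made by macrophages, was at 0.282, 0.481 and 0.505 CPM and then at 0.745, 1.62 and 0.764 CPM (1.31 ± 0.43 SE, adjusted p = 0.0463). That rise leaned on verapamil replicate 2, without which it was 0.83 (adjusted p = 0.178), and it was also lost without control replicate 1 (adjusted p = 0.156), without verapamil replicate 1 or 3 (adjusted p = 0.0646 and 0.0591), by DESeq2 (adjusted p = 0.0636) and by limma-voom (adjusted p = 0.0569). Ccl28, an epithelial ligand, was at 0.141 to 0.414 CPM and 0.552 to 0.594 CPM, not overlapping and not past the test (1.12 ± 0.42 SE, adjusted p = 0.0734), although it passed without control replicate 3 (adjusted p = 0.0235) and by limma-voom (adjusted p = 0.0478). Cxcl14 was at 7.27 to 8.21 CPM in controls and 6.50 to 7.12 CPM with verapamil, not overlapping and not past the test (-0.17 ± 0.11 SE, adjusted p = 0.251). Ccl25, Ccl27a, Ccl27b and the neutrophil receptor Cxcr2 overlapped between groups and did not pass (adjusted p = 0.632 to 0.862). Ccl27a and Ccl27b are close copies with counts that were not whole, so their split is uncertain.

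Counting groups that did not overlap, 13 of the 31 genes were wholly higher and 10 wholly lower with verapamil, where 25.1% and 24.5% of all tested genes were, 49.6% in all. These counts hold Ccr2, Xcr1 and Cxcr6, which entered the test through the controls alone, and Ccl24 and Ccl28, which entered only through verapamil. Such entry favours groups that do not overlap. The 22 genes left untested, 11 ligands and 11 receptors, had at most 15 reads in any library. They included the neutrophil attractants Cxcl1 (1 to 7 reads), Cxcl2 (4 to 10) and Cxcl5 (2 to 15), and the T cell attractant Ccl5 (4 to 11). The rest were Ccl11, Ccl17, Ccl19, Ccl21b, Ccl21d, Cxcl13, Cxcl15, Ccr10, Ccr1l1, Ccr3, Ccr4, Ccr6, Ccr7, Ccr9, Cxcr1, Cxcr5, Ackr1 and Ackr2. At this depth no difference could be read in them.

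Further genes of the chemokine pathway were described from a list of 41, of which 36 were tested. Of these, 14 rose and 5 fell (52.8%, against 31.7% of all tested genes), with a median of 0.25. Platelet factor 4 (Pf4), a CXC chemokine whose symbol does not follow the family pattern, fell from 59.7 to 28.0 CPM on average (-1.09 ± 0.10 SE, adjusted p = 3.45e-04). Rgs16, which switches off G protein signals of chemokine receptors, fell by the most (-1.82), and Mif, a cytokine that also binds Cxcr4, had a log2 fold change of -1.03 that was not past the test without any 1 of 5 libraries (adjusted p = 0.0661 to 0.131) or with low genes kept (adjusted p = 0.121). The haematopoietic GTPase Rac2, needed for directed movement of leukocytes, rose (0.93 ± 0.13 SE), as did its activator Dock2 (0.67), named after its value was seen. Of 20 NF-κB and cytokine genes tested, 7 rose and 3 fell (50.0%, against 31.7% of all tested genes), with a median of 0.11. The inhibitor Tnfaip3 (0.61) and the adhesion molecule Icam1 (0.57) rose, and Bcl3 (-0.50) and Ptgs2 (-1.47) fell, but without verapamil replicate 1 or 2 the rise of Icam1 was lost (adjusted p = 0.0640 and 0.0585), and the fall of Ptgs2 was lost by limma-voom (adjusted p = 0.0634), with low genes kept (adjusted p = 0.0867) and without any 1 library other than control replicate 3 (adjusted p = 0.0873 to 0.142).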

How the data were processed

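Gene-level RNA-seq values of 3 control and 3 verapamil libraries, all at day 7, were taken from the authors' table. Its values are estimated counts per gene, deposited as read counts per the file headers, and 67.7% of them were not whole (tolerance 0.001). The build was GRCm38 (mm10) per the submitters' processing notes. For the aligner, the counter, the annotation and the strandedness, a name or setting is not given in the sources used here. Counts were rounded, genes with too few reads were removed with filterByExpr (minimum count 10, minimum total 15), and 13366 of 17491 genes were tested with TMM factors and edgeR 4.0.16 (quasi-likelihood test, R 4.3.3), with Benjamini-Hochberg adjustment over all of them. The SE is the absolute log2 fold change divided by the square root of the F statistic.

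Alternatives were other scaling factors, filters and a stricter threshold, DESeq2 1.42.0, limma-voom (limma 3.58.1), leaving out each library, a replicate block and, added after the data were seen, close gene pairs summed. Members and gene lists were chosen with earlier results of these data known. Each tested member was named except 1, which is counted but not reported here. Values of every library are given for called members with non-overlapping groups at a mean of at least 1 CPM and for members at 20 CPM or more. From each pathway list up to 4 called genes with the largest change at a mean of at least 5 CPM were named. Marker lists are given as counts, medians and sums. Principal components used log2 CPM with a prior count of 2. On simulated data over 13366 genes, the test recovered 70% of genes changed 1.5-fold and 84.2% of genes changed 2-fold, and 8.87% of calls were false. Each of 5 draws changed 100 genes per fold and gave both groups the same spread. In the real data the groups differed in spread and 31.7% of genes passed, so these rates need not hold there. Library totals were 18.2 to 21.7 M, and a low count limits the precision of the rarest members. Symbols, coordinates and promoters came from RefSeq (GRCm38.p6), with all 53 members matched by symbol. Transcript lengths came from GENCODE.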

Additional observations from a re-analysis of the deposited data

How the results depend on the processing

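The counts of members higher (10) and lower (8) were 9 and 7 with the replicate number as a block, 4 and 5 at an adjusted p under 0.01, and 8 and 2 with the filter of at least 5 CPM in 3 libraries, under which fewer members were tested. Leaving out 1 library at a time, members higher ranged from 5 to 12 and lower from 6 to 8, ligands higher from 4 to 10 and lower from 1 to 2, and receptors higher from 1 to 2 and lower from 5 to 7. All genes higher then ranged from 1010 to 2452 and lower from 1222 to 2590. Ligands higher were 3 at the stricter threshold, against 8. Ligands lower were 1, against 2, with library totals alone, the 5 CPM filter, the DESeq2 test, limma-voom, the replicate block and the stricter threshold. Receptors higher were 1 and lower 1 with the 5 CPM filter, and higher 1 at the stricter threshold. All genes higher were 1364 with the block and 902 at the stricter threshold, and lower 1589 and 1067. The cause of these shifts was not tested.

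With library totals alone 2829 genes were higher and 1615 lower (63.7% higher, against 48.5%), and the median of all genes moved from 0.01 to 0.09. Same-numbered libraries did not deviate together (correlations 0.0089, -0.1673 and -0.1274), so the data showed no pairing by number. With 3 libraries per group, these correlations cannot exclude that same-numbered libraries shared a culture, animal or day. Under the block Cxcl12 (adjusted p = 0.0692), Ccl12 (0.0535) and Ccl24 (0.0523) were not past the test and Ccl6 was (0.0423). Direction turned in 5 members that did not pass. Over the fits without 1 library, the log2 fold change ran from -0.38 to 0.016 in Ccl25 and from -0.093 to 0.67 in Ccl27a, each turning only without control replicate 1. It ran from -0.11 to 0.041 in Ccr1, from -0.22 to 0.54 in Cxcl10 and from -0.53 to 0.095 in Cxcr2. Ccr1 was also 0.0028 with upper quartile factors and 0.069 with library totals alone, and Cxcr2 was 0.030 summed with Cxcr1. The 22 untested members were limited by depth.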
